A study of Mus musculus with 4 samples.

Results

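The neurons of the cerebellum were examined through 10 genes, Pcp2, Cbln1, Cbln3, Zic1, Zic2, En2, Neurod1, Ppp1r17, Itpr1 and Calb1, in whole-brain RNA of mice with and without the RNA editing enzyme ADAR2. The genes were taken from the array table by a match of their gene symbols, a rule that uses no measured value. They had been chosen with earlier results of these data known. They corresponded to 11 of the 33793 transcript clusters on the array, a transcript cluster being the group of probes assigned to a transcribed locus. Neurod1 had 2 clusters and each other gene had 1. None of the 11 was marked in the file as having probes that can cross-hybridize.

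The samples were total RNA of the whole brain of adult female 129SV mice, with 2 arrays for wild type and 2 for Adar2-/-. Per the study's methods, mice of both genotypes were siblings that carried the pre-edited Gria2 R/R allele. This allele rescues the lethality of the knockout, so the wild-type controls were not wild type at Gria2. Values are log2 signals normalized by the authors, where a difference of 1 is 2-fold. The targeted gene, Adarb1, was at 10.50 and 10.45 on the wild-type arrays and at 9.16 and 8.96 on the knockout arrays (log2 difference -1.42, SE 0.118, adjusted limma p 0.409). With 2 arrays per genotype an exact two-sided permutation test cannot give a p below 0.333.

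The 4 arrays had median log2 signals of 6.03 to 6.09, and any pair of them differed at least 2-fold in 90 to 160 clusters. Single arrays stood apart in tissue markers. Wild type replicate 1 was low in brainstem genes and high in forebrain genes, Adar2 knockout replicate 2 was low in olfactory bulb genes, and both knockout arrays were above both wild-type arrays in the pituitary hormone genes Prl and Gh. Their values are given beside the results they touch.

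The cerebellum is built around Purkinje cells, the only output neurons of the cerebellar cortex, and granule cells, the most numerous neurons of the brain, whose parallel fibres contact Purkinje cell dendrites. Cbln1, Cbln3, Zic1, Zic2 and Neurod1 are genes of the granule cell lineage. Pcp2, Ppp1r17, Itpr1 and Calb1 are abundant in Purkinje cells, and En2 marks the territory from which the cerebellum forms. Pcp2 and Cbln3 are the most restricted to the cerebellum, while Calb1, Itpr1, Zic1 and Neurod1 are also used by neurons elsewhere in the brain. In a whole-brain sample the signal of such genes depends on how much cerebellum the dissected tissue held as well as on transcription, and fewer cells of a type and less RNA per cell cannot be told apart.

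Of the 10 genes 4 had a promoter sequence in the RefSeq table used here. The 250 bases before the start site are shown for Cbln3 and Pcp2, as the granule cell and the Purkinje cell member most restricted to the cerebellum. The Cbln3 window lies at chr14:55884257-55884506 and the Pcp2 window at chr8:3625548-3625797, both on the minus strand of GRCm38.p6 and written 5′ to 3′. Capitals mark the letters CANNTG, the E-box that basic helix-loop-helix proteins such as NEUROD1 bind, and AGGTCA, the half-site bound by the Purkinje cell nuclear receptor RORA, each searched on both strands.
Cbln3: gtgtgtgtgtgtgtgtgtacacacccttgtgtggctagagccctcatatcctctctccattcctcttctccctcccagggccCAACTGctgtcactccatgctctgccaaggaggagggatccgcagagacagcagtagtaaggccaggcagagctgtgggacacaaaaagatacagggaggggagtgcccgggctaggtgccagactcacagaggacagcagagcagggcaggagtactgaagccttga
Pcp2: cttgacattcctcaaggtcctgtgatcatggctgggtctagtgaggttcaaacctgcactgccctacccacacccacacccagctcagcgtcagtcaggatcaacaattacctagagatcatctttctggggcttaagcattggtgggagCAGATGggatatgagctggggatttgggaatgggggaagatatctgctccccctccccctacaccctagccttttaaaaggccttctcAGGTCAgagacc
Cbln3 held 1 CANNTG and no AGGTCA, and Pcp2 held 1 of each, with no overlap between the motifs. Of 32851 promoter windows of the same length, 66.2% held CANNTG and 14% held AGGTCA. Rora itself was at 8.72 and 8.73 in wild-type and 8.78 and 8.85 in knockout brain (log2 difference 0.09, limma p 0.417).

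No cerebellar neuron gene passed the test for a difference between Adar2-/- and wild-type brain. The log2 difference between knockout and wild type ran from -0.32 for the minus-strand cluster of Neurod1 to 0.07 for Calb1, which is 1.25-fold lower to 1.05-fold higher. The median absolute difference was 0.12 over the members and 0.10 over all clusters. After adjustment no member passed a limma p of 0.05, nor did any cluster of the whole array (0% of 33793). None of the 11 reached an unadjusted limma p below 0.05 either, against 5.95% of all clusters in either direction and 2.31% in the direction of lower in the knockout. The unadjusted p-values of the members ranged from 0.0696 to 0.793 and the adjusted ones from 0.835 to 0.982.

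The 95% intervals of the difference bound the size of the differences. In all 11 clusters the interval lay inside a 2-fold change either way, as it did in 98% of all clusters. The lowest bound was -0.717 on the log2 scale, for Itpr1, a 1.64-fold lower level, and the highest was 0.366, for Calb1, a 1.29-fold higher level. Each interval covers its own cluster and not the 11 together.

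**Figure D1:**
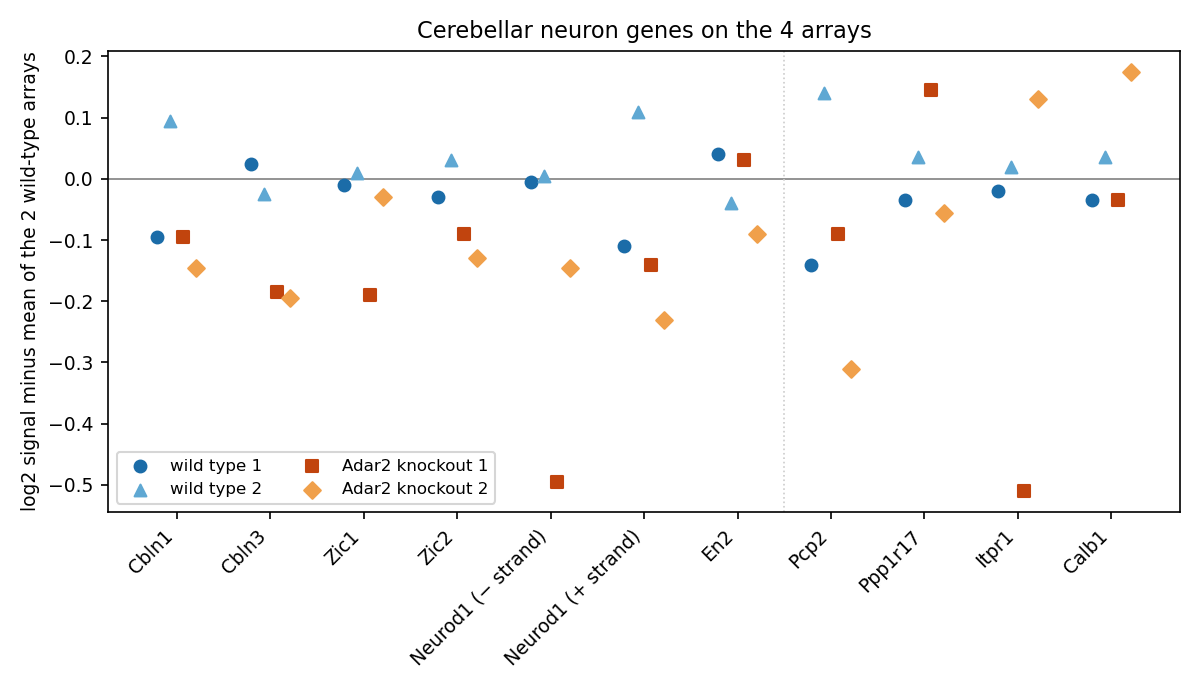
Log2 signal of each cerebellar neuron cluster on each of the 4 arrays (y axis, log2), given as the difference from the mean of the 2 wild-type arrays; the dotted line separates granule cell and patterning genes from Purkinje cell genes. Most points lie within 0.2 of 0, and the exceptions furthest below are Neurod1 (minus strand) and Itpr1 on Adar2 knockout replicate 1.

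The granule cell genes had lower means in the knockout. Cbln3 (chromosome 14, 55878920 to 55884256), a cerebellin of granule cells that is secreted together with CBLN1, was at 11.06 and 11.01 on the wild-type arrays and at 10.85 and 10.84 on the knockout arrays. The groups did not overlap, and the replicates lay within 0.05 of each other. Its log2 difference was -0.19 (SE 0.102, limma p 0.113, adjusted p 0.844), or 1.14-fold lower. Cbln3 had the smallest replicate spread of the members, and its unadjusted p passed 0.05 in alternative fits, at 0.0433 with an intensity trend in eBayes and 0.0175 without shrinkage of the variance. The adjusted p in these fits was 0.84 and 0.844.

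Cbln1 (chromosome 8, 87468853 to 87472609), the secreted cerebellin that links presynaptic neurexins to the glutamate receptor GluD2 on Purkinje cells, was at 10.70 and 10.89 in wild type and at 10.70 and 10.65 in the knockout. Its wild-type replicate 1 equalled knockout replicate 1, and the log2 difference of -0.12 (SE 0.116, limma p 0.343) was below the gap of 0.19 between the wild-type arrays. It was -0.215 without wild type replicate 1 and -0.025 without wild type replicate 2.

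Zic1 and Zic2 encode zinc finger transcription factors of granule cell precursors and their progeny. Zic1 was at 10.84 and 10.86 in wild type and at 10.66 and 10.82 in the knockout, and Zic2 at 9.75 and 9.81 against 9.69 and 9.65. In both genes both knockout values were below both wild-type values, with gaps between the groups of 0.02 for Zic1 and 0.06 for Zic2. Both had a log2 difference of -0.11 (SE 0.111 for Zic1 and 0.103 for Zic2, limma p 0.363 and 0.328). The difference of Zic1 was -0.03 without knockout replicate 1 and -0.19 without knockout replicate 2. The Zic1 locus overlaps Zic4 on the opposite strand.

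Neurod1 encodes the basic helix-loop-helix factor that granule cells need to differentiate and survive. The cluster on the minus strand, the strand of the gene (chromosome 2, 79452521 to 79456785), was at 9.60 and 9.61 in wild type and at 9.11 and 9.46 in the knockout. Wild-type replicates differed by 0.01, and knockout replicate 1 stood 0.35 below replicate 2. The log2 difference of -0.32 (SE 0.144, limma p 0.0696, adjusted p 0.835) was the largest among the members. It was -0.145 without knockout replicate 1 and -0.495 without knockout replicate 2, where the unadjusted p was 0.0171 and the adjusted p 0.858. The second Neurod1 cluster lies on the opposite strand of the same locus (79453985 to 79461107) and so measures antisense sequence. It was at 6.56 and 6.78 in wild type and at 6.53 and 6.44 in the knockout, a log2 difference of -0.185 (SE 0.123, limma p 0.184) that was smaller than the gap of 0.22 between the wild-type arrays. It was -0.295 without wild type replicate 1 and -0.075 without wild type replicate 2.

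En2, a homeobox gene of the midbrain and hindbrain territory, had the smallest range of the members over the 4 arrays, 0.13. It was at 8.68 and 8.60 in wild type and at 8.67 and 8.55 in the knockout. Its log2 difference of -0.03 (SE 0.109, limma p 0.793) turned to 0.006 with quantile normalization and to 0.012 with cyclic loess, so its direction flips with the scaling.

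The Purkinje cell genes did not share a direction. Pcp2 (chromosome 8, 3623371 to 3625545), also known as L7, a modulator of G protein signalling whose promoter is widely used to target Purkinje cells, was at 8.15 and 8.43 in wild type and at 8.20 and 7.98 in the knockout. The groups overlapped, and the log2 difference of -0.20 (SE 0.145, limma p 0.219) was below the 0.28 between the wild-type arrays. It was -0.06 without wild type replicate 2 and -0.34 without wild type replicate 1. Without knockout replicate 2 it was -0.09, and without knockout replicate 1 it was -0.31. Ppp1r17, the phosphatase inhibitor known as G-substrate, was at 9.08 and 9.15 in wild type and at 9.26 and 9.06 in the knockout, with overlapping groups and a log2 difference of 0.045 (SE 0.118, limma p 0.718). Calb1, which encodes the calcium buffer calbindin, was at 10.75 and 10.82 in wild type and at 10.75 and 10.96 in the knockout, a log2 difference of 0.07 (SE 0.12, limma p 0.581). The signs of the last pair rested on single arrays, since Ppp1r17 was at -0.055 without knockout replicate 1 and Calb1 at -0.035 without knockout replicate 2.

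Itpr1 (chromosome 6, 108213096 to 108551116), the inositol trisphosphate receptor that releases calcium from the endoplasmic reticulum, had the widest spread. It was at 10.95 and 10.99 in wild type, at 10.46 on knockout replicate 1 and at 11.10 on knockout replicate 2. The knockout arrays therefore lay on either side of the wild type and differed by 0.64. A gap this large between the knockout arrays was seen in 2.37% of all clusters, and in 0.708% of the 8197 clusters with a mean log2 signal above 8. The log2 difference was -0.19 (SE 0.214, limma p 0.409). It was -0.51 without knockout replicate 2, with an unadjusted p of 0.0167 and an adjusted p of 0.858, and it turned to 0.13 without knockout replicate 1.

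**Figure D2:**
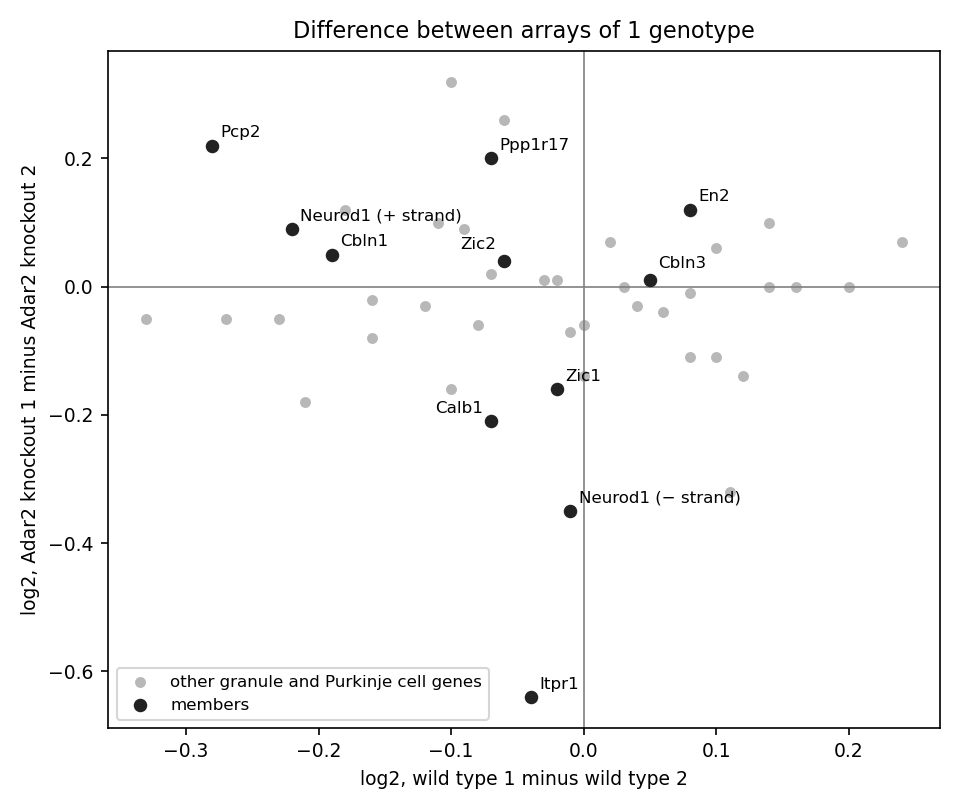
Difference between the 2 wild-type arrays (x axis, log2) and between the 2 Adar2 knockout arrays (y axis, log2) for the cerebellar neuron clusters (black) and for other granule and Purkinje cell genes (grey), 1 point per cluster. Itpr1 (-0.64) and Neurod1 on the minus strand (-0.35) lie lowest on the y axis, while Pcp2 (0.22) and Ppp1r17 (0.20) lie above 0.

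The members were next read array by array, as a measure of how much cerebellum each sample held. For this, each signal was taken as the difference from the mean of the 4 arrays, and the median was formed over the 11 clusters. It was 0.025 on wild type replicate 1, 0.085 on wild type replicate 2, -0.048 on knockout replicate 1 and -0.075 on knockout replicate 2. Over all clusters the corresponding medians ran from -0.005 to 0.007. The lowest value of a cluster was on knockout replicate 2 alone in 7 of the 11 clusters and on knockout replicate 1 alone in 3, against 25.9% and 21.6% of all clusters. The highest value was on wild type replicate 2 alone in 6 of 11, against 22.4% of all clusters. Both wild-type arrays were thus above both knockout arrays. The other cerebellar lists did not keep this order. In the same array sequence, the medians were 0.005, 0.048, -0.032 and 0.015 over the other granule cell genes and 0.003, 0.008, 0.016 and -0.008 over the other Purkinje cell genes. Striatal, forebrain and thalamic genes, from outside the cerebellum, did keep it. Striatal genes were at 0.101, 0.084, -0.054 and -0.085, forebrain genes at 0.192, 0.033, -0.119 and -0.041, and thalamic genes at 0.068, -0.01, -0.083 and -0.035. The pooled SD between replicates of the members' median was 0.0329, and with 2 arrays per genotype the gap was not tested. Over single clusters, the median absolute difference between wild-type replicates was 0.07 over the members and 0.13 over all clusters, and between knockout replicates 0.16 against 0.13.

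Between the genotypes, 9 of the 11 clusters had a lower mean in the knockout, as 47.7% of all clusters did, and the median log2 difference was -0.12 against 0.005 over all clusters. Both knockout values lay below both wild-type values in 5 of the 11, Cbln3, Zic1, Zic2 and the 2 clusters of Neurod1, against 16.5% of all clusters. Both lay above in 0 of 11, against 17.7%. After median centring these were 7 and 0 of 11, against 23.4% and 12.5% of all clusters. Groups apart and lower in the knockout were not particular to the cerebellar genes, with 6 of 12 forebrain, 5 of 8 striatal and 4 of 9 thalamic clusters, where 0, 0 and 1 were apart and higher. The 5 clusters stand for 4 genes, and the members were measured in the same 4 samples, so they are not independent of each other. The median difference stayed below 0 in each alternative run, from -0.165 without wild type replicate 1 to -0.07 with cyclic loess.

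Within the members the 6 granule cell clusters, 1 of them the antisense cluster of Neurod1, all had a lower knockout mean, with a median difference of -0.153. Of the 4 Purkinje cell clusters 2 had a lower mean, with a median difference of -0.072, which turned to 0.01 without wild type replicate 2 and to 0.038 without knockout replicate 1. That of the granule cell clusters ranged from -0.19 to -0.09 with single arrays left out, the latter without wild type replicate 2. The Purkinje cell members also disagreed on the order of the knockout arrays, since Pcp2 and Ppp1r17 were lower on replicate 2, by 0.22 and 0.20, while Itpr1 and Calb1 were lower on replicate 1, by 0.64 and 0.21. All 4 were lower on wild type replicate 1 than on replicate 2, by 0.04 to 0.28, against 16671 of all 33793 clusters. No test was made of the difference between the granule cell and Purkinje cell members.

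**Figure D3:**
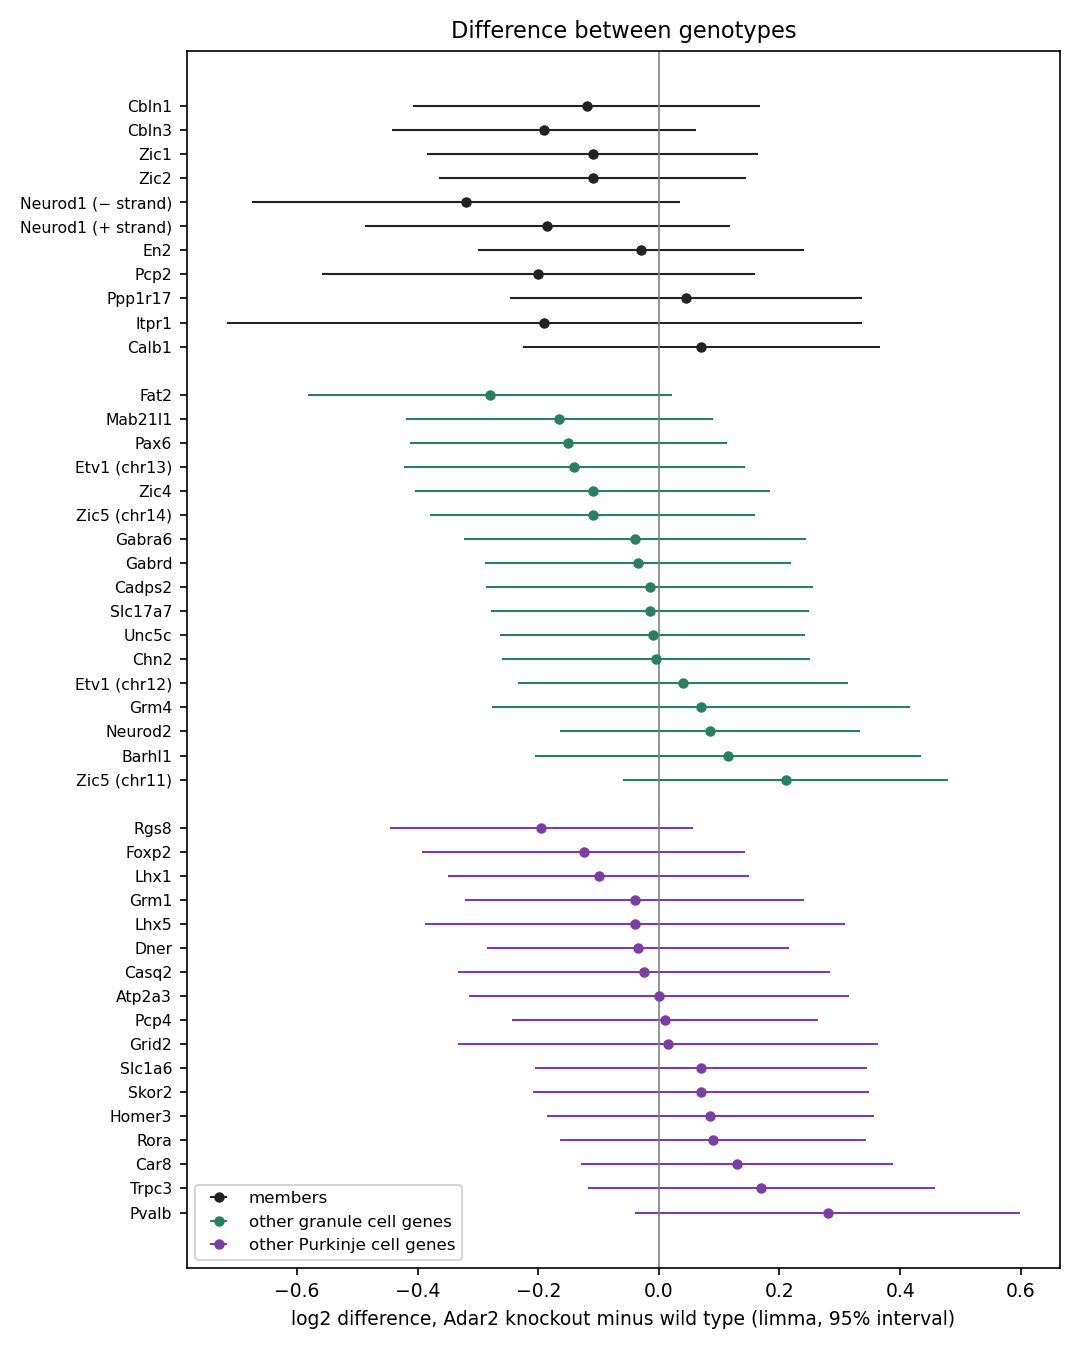
Log2 difference between Adar2 knockout and wild type with its 95% limma interval (x axis) for the 11 cerebellar neuron clusters and for other granule and Purkinje cell genes (y axis), 2 arrays per genotype, without 1 cluster that is not reported. Every interval shown contains 0 and lies inside 2-fold either way.

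Other genes used by the same cells were then considered. How much of their whole-brain signal came from the cerebellum was not measured. The 15 other granule cell genes had 17 clusters, 0 of which had an unadjusted p under 0.05 in limma. Their median log2 difference was -0.015, or -0.075 without wild type replicate 1 and 0 without knockout replicate 1. A lower knockout mean was found in 12 of 17, against 47.7% of all clusters. The groups did not overlap in 7, of which 5 were lower and 2 higher, against 16.5% and 17.7% of all clusters. The 2 higher were Neurod2 and a Zic5 cluster on chromosome 11. That Zic5 cluster was at 3.58 and 3.44 against 3.72 and 3.72, in the range of Y-linked genes, which females lack. The Zic5 cluster on chromosome 14 was among the 5 lower, as was an Etv1 cluster on chromosome 13. Fat2, a large cadherin of granule cells, had the largest difference of these, with 9.13 and 9.36 in wild type against 8.94 and 8.99 in the knockout (log2 difference -0.28, SE 0.122, limma p 0.0634). Gabra6, the GABA-A receptor subunit found almost only in granule cells, was at 9.68 and 9.78 against 9.61 and 9.77 (log2 difference -0.04, SE 0.115, limma p 0.74), with overlapping groups. Barhl1, a homeobox gene of the granule cell lineage, was at 6.03 and 6.24 against 6.16 and 6.34 (log2 difference 0.115, limma p 0.41). The genes of highest mean signal in the list were Slc17a7, the vesicular glutamate transporter, with a log2 difference of -0.015, Chn2, with -0.005, and an Etv1 cluster on chromosome 13, with -0.14 (limma p 0.893, 0.963 and 0.269). That Etv1 cluster lies outside the Etv1 locus on chromosome 12, whose own cluster was at 0.04. Cbln3 and Gabra6, both largely limited to granule cells, were thus at -0.19 and -0.04, and the 95% interval of each contained 0.

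Of 19 other Purkinje cell genes 18 were matched by symbol, with 18 clusters and a median log2 difference of 0.005. None had an unadjusted limma p below 0.05, 8 had a lower and 9 a higher knockout mean, and the groups did not overlap in 4 lower and 4 higher, against the same 16.5% and 17.7% of all clusters. Pvalb, the calcium buffer parvalbumin, which interneurons of many regions also contain, had the largest difference, with 9.61 and 9.66 on the knockout arrays against 9.22 and 9.49 on the wild-type arrays (log2 difference 0.28, SE 0.129, limma p 0.0748). Wild type replicate 1 minus replicate 2 was -0.27 for Pvalb, near the size of that difference. Car8, a carbonic anhydrase-related protein that binds the inositol trisphosphate receptor, was at 10.23 and 10.31 against 10.37 and 10.43 (log2 difference 0.13, SE 0.105, limma p 0.263), so its groups were apart in the opposite direction to those of Cbln3. Pcp4 and Dner, both among the genes of highest signal in the list, had log2 differences of 0.01 and -0.035 (limma p 0.926 and 0.742). Fat2, Gabra6, Barhl1, Zic5, Neurod2, Pvalb, Car8, Rora, Slc6a5, Tph2 and Dbh were picked out after their values were seen.

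**Figure D4:**
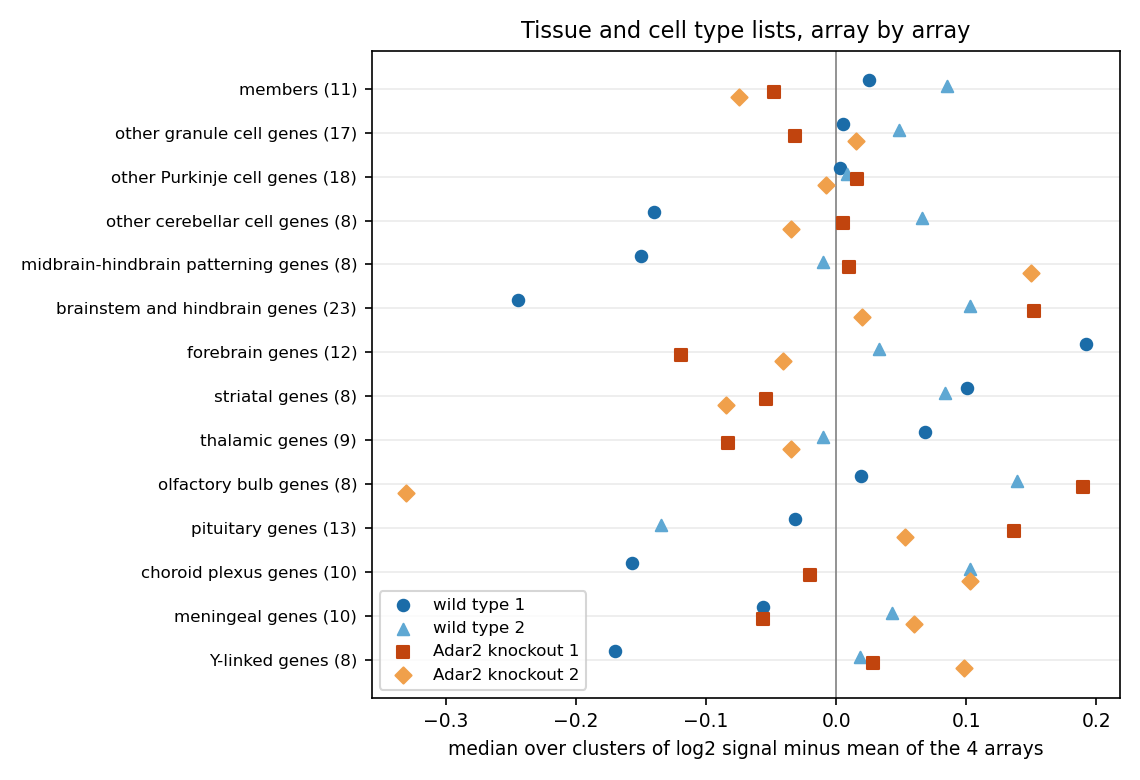
Median over the clusters of each list (number of clusters in brackets) of the log2 signal minus the mean of the 4 arrays (x axis), for each of the 4 arrays. The members span -0.075 to 0.085, brainstem genes lie at -0.245 on wild type replicate 1 and olfactory bulb genes at -0.331 on Adar2 knockout replicate 2.

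Genes of the brainstem and hindbrain set wild type replicate 1 apart. The 20 brainstem and hindbrain genes, among them the Hox genes and the glycine transporter Slc6a5, had a median deviation of -0.245 on wild type replicate 1 and of 0.02 to 0.152 on the other 3 arrays. Wild type replicate 1 alone held the lowest value in 16 of their 23 clusters, against 26.4% of all clusters. It alone held the highest value in 2, Tph2 (6.16) and Dbh (6.55), against 24.2% of all clusters. Mean log2 levels of the 23 clusters were 5.841 and 6.167 in wild type and 6.229 and 6.072 in the knockout, near the array medians of 6.03 to 6.09. Their median log2 difference between knockout and wild type was 0.145, or -0.005 without wild type replicate 1, with 0 clusters at an unadjusted p under 0.05. Slc6a5, for example, was at 9.17 there and at 9.80, 9.86 and 9.77 on wild type replicate 2 and knockout replicates 1 and 2. The members had a median of 0.025 on wild type replicate 1, or -0.002 with cyclic loess, and the lowest value there alone in 0 of 11. Still, 9 of the 11 were lower on wild type replicate 1 than on replicate 2, as were 18 of the 23 brainstem clusters, against 16671 of all 33793 clusters. The median of the Purkinje cell members on wild type replicate 1 was -0.049. Genes of other cerebellar cell types were at -0.14 there. Forebrain genes ran the other way, with a median of 0.192 on wild type replicate 1, the highest value there alone in 10 of 12 clusters and a lowest median of -0.119 on knockout replicate 1. Without wild type replicate 1 the members had 0 clusters at an unadjusted limma p under 0.05 and a median difference of -0.165.

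Markers of other tissues also differed between genotypes or between single arrays, although none passed the adjusted threshold. Of the forebrain genes 3 had an unadjusted limma p below 0.05, Neurod6 at -0.355, Fezf2 at -0.38 and Prox1 at -0.38. Their adjusted p was 0.834. Over the whole array, 2.31% of clusters passed the same unadjusted threshold as lower in the knockout. There were 12 forebrain clusters, 11 of 12 listed genes being matched. Their median difference was -0.225, or -0.095 without wild type replicate 1 and -0.14 without knockout replicate 1. Neurod6 and Prox1 mark hippocampal and cortical neurons, some of which also express Neurod1 and Calb1. Among 8 striatal clusters the dopamine receptor gene Drd1a was at -0.32 (limma p 0.0325), with a median of -0.175. Of 13 pituitary clusters Prl, Gh and Pomc had an unadjusted limma p below 0.05 and were higher, as were 1230 of all 33793 clusters. Their log2 differences were 4.12, 3.17 and 0.51, and the median over the list was 0.18. Olfactory bulb genes were lowest on knockout replicate 2 in 8 of 8 clusters, with a median deviation of -0.331 there, and Cdhr1 was at -0.785 (limma p 0.0214). Mean log2 levels of the forebrain clusters were 8.258 and 8.142 in wild type and 7.963 and 8.075 in the knockout, those of the olfactory bulb clusters 7.438 and 7.525 against 7.53 and 6.953, and those of the members 9.647 and 9.723 against 9.535 and 9.592. Genes of the meninges, a tissue that also uses Zic1 and Zic2, had 0 of 10 clusters with an unadjusted limma p below 0.05. Their median difference was 0.022, or -0.05 without wild type replicate 1 and 0.082 without wild type replicate 2. The 9 thalamic clusters had 0 such clusters and a median of 0, or -0.09 without knockout replicate 2. The part of these tissues in the members' values was not tested.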

How the data were processed

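Whole-brain RNA was prepared with the Ambion WT Expression Kit and hybridized to 4 Affymetrix mouse arrays that cover whole transcripts. The authors deposited 1 normalized log2 signal per cluster and array, given to 2 decimals; the submitters' processing notes name Affymetrix Expression Console and RMA. RMA pulls values towards a common distribution, which can hide a shift shared by most genes. The 7 columns of the authors' own ratios, folds and p-values were not used. The file names no genome build, and all 11 clusters overlapped the RefSeq span of their gene in GRCm38.p6.

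The genotypes were compared by the moderated two-sided test of limma (version 3.58.1, run under R 4.3.3) in a model that held genotype alone, followed by Benjamini-Hochberg adjustment over 33793 clusters without a filter. The code was tested on simulated data. Mean signal served to pick named genes, to filter dim clusters and to set a reference of brighter clusters. The labels do not say how the replicates relate beyond separate arrays, so p-values measure the spread between these arrays, whose number limits the precision. Groups count as apart where both knockout values lie strictly above or below both wild-type values.

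Named genes were all clusters of the 10 members, genes of 13 other lists with an unadjusted limma p below 0.05, and the 3 of highest signal in the granule and Purkinje cell lists, of which 1 is not reported here. A few others, marked in the text, were picked after their values were seen. The members and lists were chosen with earlier results of these data known. Values were recomputed after median centring, after quantile or cyclic loess normalization, and with filters on dim and on cross-hybridizing clusters, 1 value per gene, leaving out each array, a replicate block, and trended, robust or no shrinkage. Tables and plots used Python 3.11.15, pandas 2.3.3 and matplotlib 3.10.9.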

Additional observations from a re-analysis of the deposited data

How the results depend on the processing

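The count of member clusters past an adjusted p of 0.05 was 0 in all 14 alternatives, and over all clusters it was 0 except without shrinkage, where it was 15. The count past an unadjusted p of 0.05, 0 as reported, was 1 after median centring (Neurod1, minus strand), 2 with an intensity trend (that cluster and Cbln3), 1 without shrinkage (Cbln3), and 0 to 2 with single arrays left out, the 2 without Adar2 knockout replicate 2 being Neurod1 and Itpr1. Of all clusters 6.01%, 5.83%, 5.61% and 4.86% passed in these 4 fits. The 5 clusters with groups apart became 4 to 7 under other scalings or with 1 value per gene, and 6 to 11 with 1 array left out, where 64.1% to 67.2% of all clusters were apart, against 34.1% with 4 arrays. The 11 were without Adar2 knockout replicate 1, 9 lower and 2 higher. The median difference of the members moved from -0.12 to -0.16 after median centring, -0.083 after quantile and -0.07 after cyclic loess normalization, and ranged from -0.165 to -0.075 with single arrays left out. The median deviation on wild type replicate 1 was 0.06 after median centring and -0.017 to 0.05 with single arrays left out, and that on knockout replicate 1 was -0.063 to -0.007. Of 154 values of single clusters 141 kept their side of the unadjusted threshold and their sign, 6 passed it and 7 changed sign. The sign changes were En2 at 0.006 with quantile normalization, 0.012 with cyclic loess, and -0.09 to 0.03 with arrays left out, Ppp1r17 at -0.055 to 0.145, Itpr1 at -0.51 to 0.13 and Calb1 at -0.035 to 0.175, the last 3 with arrays left out. The cause was not tested. Of 464 list medians per array 425 moved by less than the replicate spread.

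Across clusters, the differences between replicates in wild type and in knockout correlated at r = 0.0516 (Pearson). This value cannot show whether arrays of equal replicate number have more in common than that number. Under a replicate block the members' median stayed at -0.12, with 0 clusters past an unadjusted or adjusted p of 0.05. Leaving out an array assumes that the single one left varies like those of the other genotype. The deposited table gives no signal over background per probe. The 8 clusters of Y-linked genes, which females lack, had a median log2 difference of 0.077, with Zfy2 at 0.42 (limma p 0.0274).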

Other observations

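Other cell types of the cerebellum gave no unadjusted limma p below 0.05 in 8 clusters, with a median log2 difference of 0.088, or -0.02 without wild type replicate 1, -0.045 without knockout replicate 1 and 0.203 without wild type replicate 2. The genes named here, Gdf10, Kit, Calb2 and En1, were picked after their values were seen. Gdf10, a marker of Bergmann glia, was at 8.80 and 9.16 in wild type and at 8.92 and 9.21 in the knockout, so that the arrays of each genotype differed more than the genotypes did (log2 difference 0.085, SE 0.169). Kit, which molecular layer interneurons express, was at 9.24 and 9.15 against 9.18 and 9.11. Calb2, the calcium buffer of unipolar brush cells and of many olfactory bulb interneurons, was at 10.38 and 10.64 against 10.36 and 10.06, lowest on the array on which the olfactory bulb genes were lowest. Its log2 difference was -0.30 (SE 0.154, limma p 0.101).

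The patterning genes of the midbrain and hindbrain border had 8 clusters for 7 genes. Of these 7 had a higher and 0 a lower knockout mean, where 47.7% of all clusters had a lower one. Their median log2 difference was 0.175, or 0.10 without wild type replicate 1 and 0.105 without knockout replicate 2, and none had an unadjusted limma p below 0.05. Mean log2 levels of the list were 6.02 and 6.099 in wild type and 6.147 and 6.268 in the knockout. These lie near the array medians of 6.03 to 6.09, and the lowest value was 4.86. En1, the paralogue of En2, was at 6.12 and 6.30 in wild type and at 6.29 and 6.53 in the knockout (log2 difference 0.20, SE 0.134, limma p 0.188), whereas En2 was at -0.03. The difference between En1 and En2 was not tested. Choroid plexus genes were lower on wild type replicate 1 than on replicate 2 in 10 of 10 clusters, against 16671 of all 33793 clusters. Their median deviation was -0.157 on wild type replicate 1. Their median log2 difference between genotypes was 0.05, or -0.08 without that array and 0.195 without wild type replicate 2.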
